A study of Mus musculus with 4 samples.

Results

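The cytosolic and mitochondrial heat shock chaperones were followed here in cultured mouse embryonic fibroblasts (MEFs) lacking Dnmt3l and in wild-type (WT) MEFs. Members were taken by name from the gene symbols of the RefSeq transcript table. They are the HSP90, HSP70, HSP110, HSP60 and HSP10 genes, the small heat shock protein genes (Hspb), the J-domain genes Dnaja, Dnajb and Dnajc, and the CCT subunit genes with Tcp1. The endoplasmic reticulum chaperones Hspa5, Dnajb9, Dnajb11 and Dnajc3 and names ending in -ps were left out. The names still take in genes of other compartments, such as Dnajc10 and Dnajb12 of the endoplasmic reticulum and nuclear Dnajc8. The rule gave 77 of 36846 gene symbols, covered by 197 transcripts, and used no measured value.

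The groups were Dnmt3l-KO (2 libraries) and WT (2 libraries). Both sets of lines were on the C57BL/6 strain, came from intercrosses of Dnmt3l heterozygotes at embryonic day 13.5 to 14.5, grew in serum-containing medium and were at passage 4. Neither group was labelled as heat-shocked or otherwise stressed. The Dnmt3l protein assists the enzymes that set new DNA methylation, and the study looked for expression differences between these donor cells for nuclear transfer. Whether the 2 libraries of a genotype trace to different embryos is not in the labels, so each p-value reflects library-to-library spread that may be technical. In bulk RNA, fewer cells that express a gene and less RNA per cell cannot be told apart. Total counts were 51465395 and 40681328 in Dnmt3l-KO and 47776612 and 41049869 in WT. Dnmt3l itself had 0 counts in both Dnmt3l-KO libraries, and 6 counts and 1 count in WT, too few to check the labels. Fibroblast markers were abundant, with 12 of 12 tested and a summed level of 19414 and 24373 CPM in Dnmt3l-KO and 20836 and 17880 CPM in WT. CPM is the usual depth-scaled count, with library totals scaled by edgeR's TMM factors. Of the macrophage and leukocyte markers 6 of 8 were tested. Their list summed to 12.3 and 10.6 CPM in Dnmt3l-KO and 11.1 and 9.25 CPM in WT. The myogenic factors Myod1 and Myog had at most 5 counts in any library. The whole striated muscle list, 5 of 8 tested, summed to 264 and 136 CPM in Dnmt3l-KO and 284 and 181 CPM in WT. Neural markers, 5 of 5 tested, summed to 156 and 129 CPM in Dnmt3l-KO and 164 and 128 CPM in WT. Endothelial markers, 3 of 5 tested, summed to 20.2 CPM in Dnmt3l-KO replicate 1 and at most 10.1 CPM in any other library.

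Chaperones bind unfolded or partly folded proteins and keep them from clumping while they fold, move or are taken apart. HSP70 proteins hold short stretches of a client in a cycle driven by ATP, J-domain proteins (HSP40) bring clients to them and start ATP hydrolysis, and HSP110 proteins exchange the nucleotide. HSP90 acts later, on kinases and steroid receptors among others. HSP60 with its HSP10 lid in mitochondria, and the ring-shaped CCT complex in the cytosol, enclose a client, actin and tubulin in the case of CCT. Small heat shock proteins hold clients without ATP. Cells under proteotoxic stress raise many of these genes through the transcription factor HSF1, which binds heat shock elements, repeats of the unit GAA in alternating orientation.

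No chaperone gene separated the genotypes in the test across all genes. Of the 77 members, 67 passed the filter on low counts and were tested, 4 had counts below it and 6 had 0 counts in all 4 libraries. At an adjusted p of 0.05, edgeR called 0 of the 67, where it called 0.0203% of the 14760 genes tested. By direction, 0 members were called higher and 0 lower in Dnmt3l-KO, against 0.0136% and 0.00678% of all genes. The smallest adjusted p of a member was 0.999 in edgeR and above 0.999 in DESeq2's Wald test, which called 0 members and 0.166% of all genes with an adjusted p. At an unadjusted p under 0.05 there was 1 member, Hspa1b, against 4.15% of all genes tested. Hspa1b was lower in Dnmt3l-KO, as were 1.81% of all genes at that p, with 2.34% higher. Leaving out Dnmt3l-KO replicate 1 gave 7 such members of 67, where 12% of all genes in that fit had such a p. Leaving out Dnmt3l-KO replicate 2 gave 4, where 13.3% of all genes did. Leaving out WT replicate 1 or WT replicate 2 gave 0 in each case, where 1.31% and 1.46% of all genes did. The 95% intervals rest on the same library-to-library spread as the p-values. They would leave out differences between embryos if the libraries of a genotype share an embryo. For 52 of 67 members the 95% interval of the fold change lay within 1.5-fold in either direction, and for 58 within 2-fold.

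The differences were small, and more of them were negative than positive. The median log2 fold change, Dnmt3l-KO minus WT, was -0.06 over the 67 members and 0.01 over all genes tested. A negative value was found in 46 members (68.7%) and in 48.7% of all genes. Both Dnmt3l-KO libraries lay below both WT libraries in 17 members, 25.4% against 16.5% of all genes, and above them in 8, 11.9% against 16.2%. Together these are 25 members, 37.3% against 32.8% of all genes. These members share the same 4 libraries, and no test was made of the list. Dnmt3l-KO replicate 2 was the lowest library for 31 of the 67 members, against 28.8% of all genes. WT replicate 1 was the highest for 25, against 20.7% of all genes. The median became -0.10 when Dnmt3l-KO replicate 1 was left out and -0.03 when Dnmt3l-KO replicate 2 was. It became -0.02 when WT replicate 1 was left out and -0.09 when WT replicate 2 was.

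**Figure D1:**
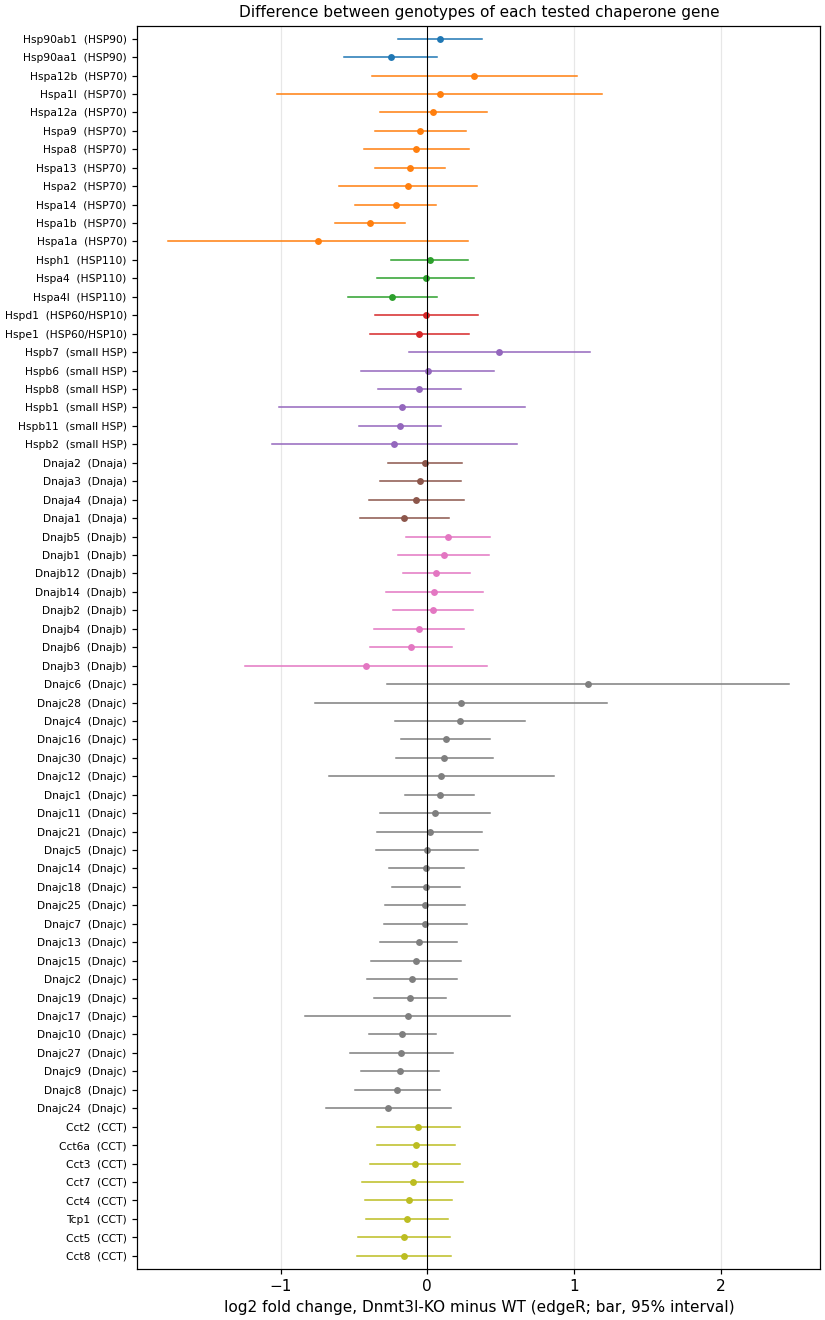
Log2 fold change of each of the 67 tested chaperone genes, Dnmt3l-KO minus WT, by family (x axis, edgeR; points, estimates; bars, 95% intervals; colours, families). The interval of Hspa1b alone lies wholly on one side of 0, and the widest intervals belong to genes of low count such as Dnajc6.

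Per length, a pair of constitutive genes, Hspa8 and Hsp90ab1, supplied 35.2% and 35.4% of the chaperone transcripts in Dnmt3l-KO and 33.6% and 34.5% in WT. FPKM, the deposited length- and depth-scaled value, was summed over the transcripts of a gene. Hspa8, the constitutive cytosolic HSP70 (HSC70), was the most abundant member, at 984 and 849 FPKM in Dnmt3l-KO and 901 and 978 FPKM in WT. Hsp90ab1, the constitutive HSP90, came next at 487 and 511 FPKM in Dnmt3l-KO and 453 and 459 FPKM in WT. Below them stood Hsp90aa1, Hspb1, Cct2, Hspe1, Cct5, Tcp1, Hspa9 and Hspd1, whose means over the 4 libraries ran from 199 to 120.2 FPKM. Hsp90aa1 to Hspe1 lay within 199 and 177 FPKM, and the order among these 4 is not settled, since Hspb1 alone ranged from 125 to 229 FPKM over libraries. The 5 most abundant members made up 49.7% and 47.8% of the summed FPKM of all members in Dnmt3l-KO and 48.3% and 48.5% in WT. In the raw counts, all members together took 1.01% and 0.958% of the library in Dnmt3l-KO and 1.05% and 1.02% in WT.

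**Figure D2:**
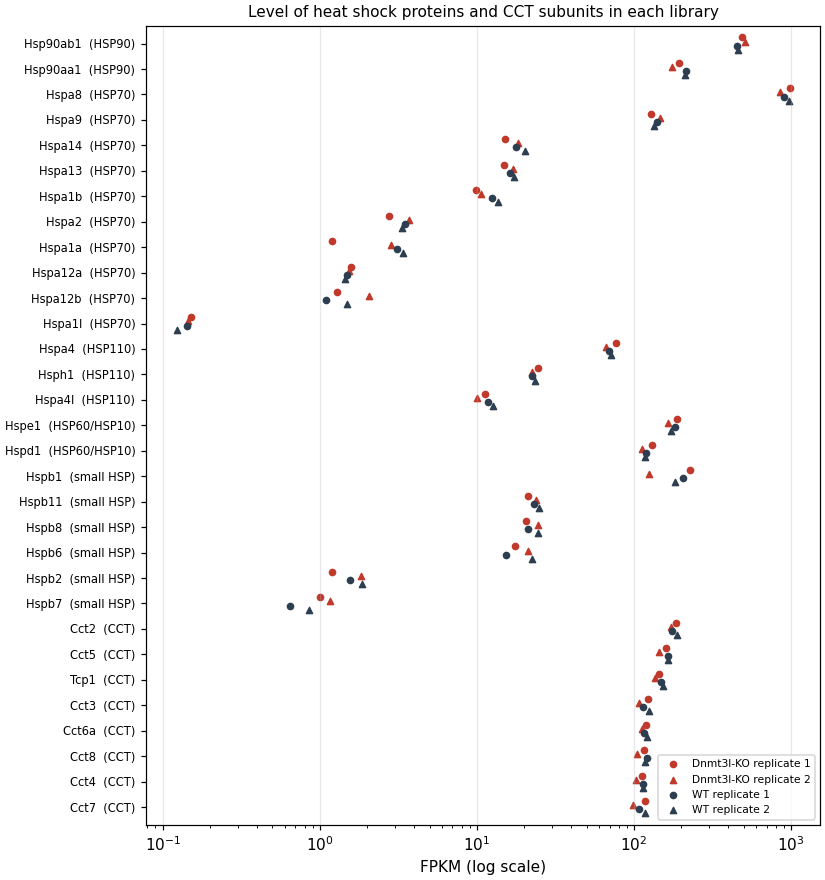
FPKM of the tested heat shock protein and CCT genes in each library (x axis, log scale; red, Dnmt3l-KO; dark blue, WT; circles, replicate 1; triangles, replicate 2). For 26 of the 31 genes the 4 libraries lie within 1.5-fold of each other, with a wider spread for Hspa1a, Hspa12b, Hspb1, Hspb7 and Hspb2, while the genes span levels from Hspa1l to Hspa8.

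Hspa1a and Hspa1b are the stress-inducible cytosolic HSP70 genes, the classic targets of HSF1. They sit side by side on chromosome 17 of GRCm38, Hspa1a at 34969359 to 34972156 and Hspa1b at 34956429 to 34959238. Their transcripts were 99.23% identical over 2201 bases by BLAST, so how reads were divided between them is uncertain. The RefSeq promoters (GRCm38.p6, 250 bases before to 50 bases after the start site) were identical at 296 of 300 positions. They are shown because these genes had the smallest p and the most negative fold change among the members. Both lie on the minus strand, at chr17:34972107-34972406 for Hspa1a and chr17:34959189-34959488 for Hspa1b. Capitals mark a heat shock element of 2 units (GAANNTTC or TTCNNGAA), whose first base is 104 bases upstream of the start site in each.
Hspa1a: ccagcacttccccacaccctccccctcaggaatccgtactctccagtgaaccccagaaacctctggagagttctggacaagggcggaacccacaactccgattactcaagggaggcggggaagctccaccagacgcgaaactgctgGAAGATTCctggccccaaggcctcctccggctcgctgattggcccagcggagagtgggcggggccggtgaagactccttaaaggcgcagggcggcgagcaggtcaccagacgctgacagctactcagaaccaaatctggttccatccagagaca
Hspa1b: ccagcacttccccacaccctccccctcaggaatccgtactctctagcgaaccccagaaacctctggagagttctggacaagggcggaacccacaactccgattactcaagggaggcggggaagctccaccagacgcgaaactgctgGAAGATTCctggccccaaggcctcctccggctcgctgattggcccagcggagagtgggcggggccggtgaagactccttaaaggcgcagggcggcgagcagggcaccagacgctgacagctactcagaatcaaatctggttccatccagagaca

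Hspa1b had 30.5 and 31.8 CPM in Dnmt3l-KO and 41.1 and 40.5 CPM in WT. Both knockout libraries were lower, and the libraries of a genotype differed by less than the genotypes did. The log2 fold change was -0.39 ± 0.09 (SE; 95% interval -0.63 to -0.15), and edgeR gave an unadjusted p of 0.0086 with adjusted p = 0.999. It stayed between -0.42 and -0.32 in the alternatives tried. DESeq2 gave an unadjusted p of 0.011 and an adjusted p above 0.999. Leaving out WT replicate 1 or WT replicate 2 brought edgeR's unadjusted p to 0.076 and 0.067.

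Hspa1a had 3.71 and 8.40 CPM in Dnmt3l-KO and 10.0 and 10.2 CPM in WT. The knockout libraries were both lower but lay far apart, with 185 and 351 counts in Dnmt3l-KO against 473 and 424 counts in WT. Its log2 fold change was -0.74 ± 0.39 (SE; interval -1.76 to 0.28; adjusted p = 0.999 in edgeR). It was -1.45 without Dnmt3l-KO replicate 2 and -0.27 without Dnmt3l-KO replicate 1. Hspa1a made up 10.9% of the counts of the pair in Dnmt3l-KO replicate 1, against 20.9% in Dnmt3l-KO replicate 2 and 19.7% and 20.0% in WT.

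With the near-identical pair summed, the level was 34.2 and 40.2 CPM in Dnmt3l-KO and 51.1 and 50.7 CPM in WT. The groups did not overlap. As 1 feature of the edgeR fit, a choice made after the data had been seen, the sum had a log2 fold change of -0.45 ± 0.12 (SE; interval -0.75 to -0.15; unadjusted p = 0.011, adjusted p = 0.999). Per length the pair supplied 0.952% and 1.29% of HSP70 transcripts in Dnmt3l-KO and 1.42% and 1.45% in WT. An exact two-sided permutation test of that share gave p = 0.333, the smallest that 2 against 2 libraries allow.

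Other HSP70 genes are constitutive, organelle-bound or restricted to certain tissues. Hspa8 (chromosome 9, 40801276 to 40805202) had 2284 and 1889 CPM in Dnmt3l-KO and 2208 and 2188 CPM in WT. Its groups overlapped, and the log2 fold change of -0.08 had an interval of -0.43 to 0.28. Hspa8 supplied 84.9% and 80.8% of HSP70 FPKM in Dnmt3l-KO and 82.1% and 83.4% in WT. Hspa9, the mitochondrial HSP70 (mortalin), supplied 11.0% and 13.9% in Dnmt3l-KO and 12.8% and 11.4% in WT, and had 432 and 474 CPM in Dnmt3l-KO and 501 and 438 CPM in WT. Hspa9 also overlapped between the genotypes, with a log2 fold change of -0.05 ± 0.12 (SE).

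Hspa13, an HSP70-like protein of microsomes, and Hspa14, a ribosome-associated HSP70-like protein, were both lower in both knockout libraries without passing the test. Hspa14 had 33.6 and 37.9 CPM in Dnmt3l-KO and 40.7 and 42.4 CPM in WT, and the log2 fold change was -0.22 ± 0.11 (SE; adjusted p = 0.999 in edgeR). Hspa13 had 67.2 and 73.2 CPM in Dnmt3l-KO and 77.0 and 75.4 CPM in WT, at -0.12 ± 0.09. The distant family members were low. Hspa12a averaged 1.55 FPKM in Dnmt3l-KO and 1.47 FPKM in WT, and Hspa12b averaged 1.67 FPKM in Dnmt3l-KO and 1.29 FPKM in WT. Hspa2 and Hspa1l, both known from spermatogenic cells, differed in level. Hspa2 had 7.85 and 10.1 CPM in Dnmt3l-KO and 10.6 and 9.15 CPM in WT, while Hspa1l had 20 and 15 counts in Dnmt3l-KO and 19 and 13 counts in WT. Neither separated the groups. Summed over the 10 genes, HSP70 came to 2873 and 2541 CPM in Dnmt3l-KO and 2902 and 2818 CPM in WT. Both knockout libraries together averaged 0.947 times WT, with overlap between the groups (exact two-sided permutation p = 0.667).

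The cytosolic HSP90 pair showed values on opposite sides. Hsp90aa1 encodes the inducible HSP90 alpha and Hsp90ab1 the constitutive HSP90 beta. Hsp90aa1 (chromosome 12, 110691036 to 110696395) had 607 and 532 CPM in Dnmt3l-KO and 709 and 646 CPM in WT. Both knockout libraries were below both WT libraries, with a log2 fold change of -0.25 ± 0.12 (SE; interval -0.57 to 0.06; adjusted p = 0.999 in edgeR). Hsp90ab1 (chromosome 17, 45567778 to 45573261) had 1348 and 1357 CPM in Dnmt3l-KO and 1324 and 1224 CPM in WT. Here both knockout libraries were above, at 0.09 ± 0.11 (SE; interval -0.20 to 0.37; adjusted p = 0.999 in edgeR). Per length, Hsp90ab1 exceeded Hsp90aa1 by 2.53-fold and 2.90-fold in Dnmt3l-KO and by 2.13-fold and 2.16-fold in WT. The ratio was higher in both knockout libraries, with an exact two-sided permutation p of 0.333, the smallest possible. The sum of both genes was 1955 and 1889 CPM in Dnmt3l-KO and 2033 and 1871 CPM in WT and overlapped.

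**Figure D3:**
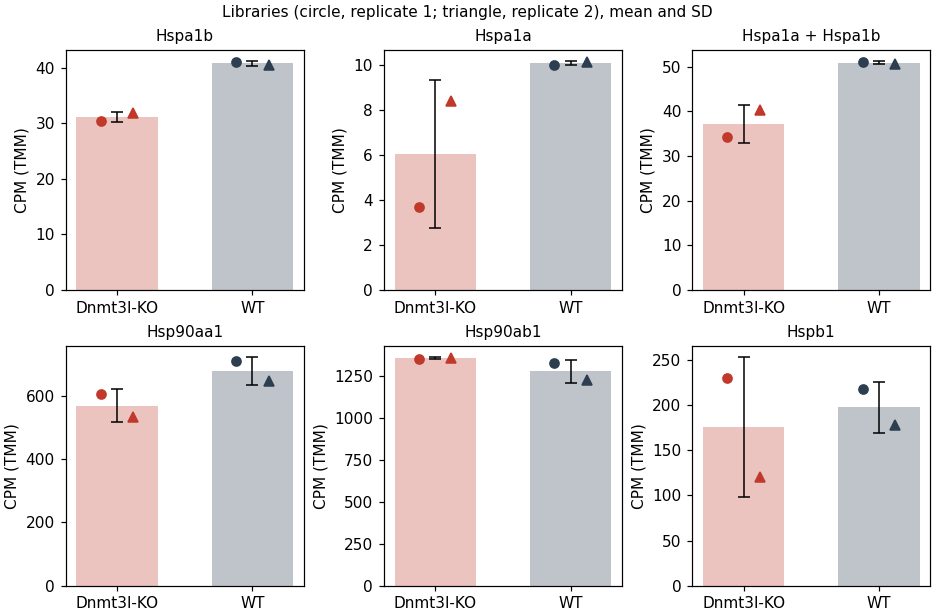
CPM of Hspa1b, Hspa1a, their sum, Hsp90aa1, Hsp90ab1 and Hspb1 in Dnmt3l-KO and WT (y axes start at 0; bars, means; error bars, SD, n = 2; circles, replicate 1; triangles, replicate 2). The groups stand apart for all but Hspb1, whose Dnmt3l-KO libraries lie at 230.3 and 120.5 CPM around the WT libraries.

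Among HSP110 genes, the nucleotide exchange factors of HSP70, Hspa4 was the most abundant at 68.4% and 67.4% of the family's FPKM in Dnmt3l-KO and 67.1% and 66.6% in WT. Hspa4 had 396 and 330.0 CPM in Dnmt3l-KO and 377 and 355 CPM in WT. Heat-inducible Hsph1 (HSP105) had 92.0 and 81.2 CPM in Dnmt3l-KO and 87.8 and 83.5 CPM in WT, a log2 fold change of 0.02 ± 0.10 (SE). Hspa4 and Hsph1 overlapped. Hspa4l had 47.3 and 39.9 CPM in Dnmt3l-KO and 52.0 and 51.1 CPM in WT. Its groups did not overlap, but its log2 fold change of -0.24 ± 0.12 (SE) did not pass (adjusted p = 0.999 in edgeR).

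Hspd1 (HSP60) and Hspe1 (HSP10) form the mitochondrial folding chamber. They are neighbours on chromosome 1, head to head, at 55077833 to 55088243 and 55088148 to 55091317, and their annotated exons overlap by 112 bases on opposite strands. Hspd1 had 2 promoter windows, and the one at chr1:55088194-55088493 held no heat shock element. Its window at chr1:55087883-55088182 and the window of Hspe1 hold the same heat shock elements, read from either side. That is a run of alternating units in which 2 overlapping elements of 3 units each (TTCNNGAANNTTC or GAANNTTCNNGAA) were found. The windows of Hspe1 (chr1:55087898-55088197, plus strand) and Hsph1 (chr5:149636287-149636586, minus strand, 1 element) are shown, with the 3-unit elements in capitals, since only 0.662% of the 27025 genes with a RefSeq promoter held one. The Hspe1 elements begin 89 and 84 bases upstream of the start site, and the Hsph1 element begins 37 bases downstream of it.
Hspe1: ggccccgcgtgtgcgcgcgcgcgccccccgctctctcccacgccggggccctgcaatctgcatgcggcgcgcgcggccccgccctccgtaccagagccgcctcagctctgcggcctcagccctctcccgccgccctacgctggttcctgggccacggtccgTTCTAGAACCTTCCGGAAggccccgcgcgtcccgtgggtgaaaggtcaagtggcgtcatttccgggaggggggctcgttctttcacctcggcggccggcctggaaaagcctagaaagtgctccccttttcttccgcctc
Hsph1: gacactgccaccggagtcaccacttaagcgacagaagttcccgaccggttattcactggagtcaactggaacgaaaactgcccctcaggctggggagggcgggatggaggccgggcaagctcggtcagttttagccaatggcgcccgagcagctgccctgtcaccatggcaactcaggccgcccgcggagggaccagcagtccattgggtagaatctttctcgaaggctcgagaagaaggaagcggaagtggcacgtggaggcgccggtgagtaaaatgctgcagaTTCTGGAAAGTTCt

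Hspd1 and Hspe1 did not differ between the genotypes beyond the spread. Hspd1 had 338 and 280.0 CPM in Dnmt3l-KO and 328 and 293 CPM in WT, a log2 fold change of -0.01 (interval -0.36 to 0.34). Hspe1 had 163 and 138 CPM in Dnmt3l-KO and 167 and 145 CPM in WT, at -0.06 (interval -0.39 to 0.28). For both genes replicate 1 was higher than replicate 2 in each genotype. Per length, Hspe1 exceeded Hspd1 by 1.43-fold and 1.46-fold in Dnmt3l-KO and by 1.51-fold and 1.47-fold in WT.

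Of the 62 members with a RefSeq promoter, 4 (6.45%) held a 3-unit element, namely Hspd1, Hspe1, Hsph1 and Dnajb6. An element of 2 units (GAANNTTC or TTCNNGAA, each its own reverse complement, and contained in every 3-unit element) was found in 20 members (32.3%) and in 17.0% of all genes with a promoter. Among the 8 stress-inducible members with a promoter, 6 held one. Hspb1 held 2 separate 2-unit elements, beginning 117 and 97 bases upstream of its start site. These matches describe letters in a window of 300 bases and do not show binding.

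Of the 8 small heat shock protein genes 6 were tested, 4 with negative and 2 with positive fold changes. Hspb1 (HSP25), the most abundant, protects the actin cytoskeleton and lies on chromosome 5 at 135887919 to 135889563. Hspb1 had 230.3 and 120.5 CPM in Dnmt3l-KO and 218 and 178 CPM in WT. The knockout libraries lay on either side of both WT libraries, and the log2 fold change of -0.17 ± 0.32 (SE) had an interval of -1.01 to 0.66. It was 0.22 without Dnmt3l-KO replicate 2 and -0.72 without Dnmt3l-KO replicate 1. The smooth muscle markers Acta2, Tagln, Cnn1 and Myh11 summed to 7819 and 5014 CPM in Dnmt3l-KO and 7100 and 5658 CPM in WT, in the same order of libraries as Hspb1. That order is not particular to Hspb1, since Hspa8, Hspa4, Hspd1, Hsph1 and Dnajb4 had it too. The part of these markers in the Hspb1 values was not tested.

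Hspb8, which works with the co-chaperone Bag3 in selective autophagy, had 41.2 and 47.0 CPM in Dnmt3l-KO and 44.8 and 47.0 CPM in WT. Hspb6 (HSP20) had 26.7 and 31.1 CPM in Dnmt3l-KO and 24.6 and 33.1 CPM in WT. Both overlapped. Hspb7, best known from heart, had 153 and 142 counts in Dnmt3l-KO and 98 and 105 counts in WT. Its log2 fold change of 0.49 ± 0.24 (SE; interval -0.12 to 1.11) came with separate groups but did not pass (adjusted p = 0.999 in edgeR). The striated muscle markers, 5 of 8 tested, summed to 264 and 136 CPM in Dnmt3l-KO and 284 and 181 CPM in WT, most of it from Acta1. Hspb2 had 45 and 52 counts in Dnmt3l-KO and 58 and 53 counts in WT, and shares 252 exon bases on the opposite strand with Cryab. Hspb11, an intraflagellar transport protein that carries a heat shock name, had 13.7 and 14.7 CPM in Dnmt3l-KO and 16.2 and 16.03 CPM in WT, at -0.19 ± 0.11. Hspb3 and Hspb9 had at most 3 counts in any library.

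The J-domain genes were the largest group, with 36 of 42 tested. Dnaja proteins, the closest to bacterial DnaJ, include the cytosolic HSP70 partners Dnaja1, Dnaja2 and Dnaja4 and the mitochondrial Dnaja3. Dnaja2 had 134 and 120.7 CPM in Dnmt3l-KO and 127 and 130.5 CPM in WT. Dnaja1 had 140.1 and 129.7 CPM in Dnmt3l-KO and 163 and 138 CPM in WT, a log2 fold change of -0.16 ± 0.12 (SE). All 4 Dnaja genes overlapped between the genotypes and had negative fold changes, from -0.16 to -0.02.

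Of the Dnajb genes 8 of 11 were tested, with 5 positive and 3 negative fold changes. Dnajb1, the heat-inducible HSP40, had 51.8 and 43.3 CPM in Dnmt3l-KO and 43.9 and 44.2 CPM in WT, so that 1 knockout library was above and 1 below WT. Dnajb6, which keeps polyglutamine proteins from aggregating, had 99.6 and 93.2 CPM in Dnmt3l-KO and 111 and 97.0 CPM in WT. Dnajb4 had 103 and 85.2 CPM in Dnmt3l-KO and 99.7 and 95.9 CPM in WT. Dnajb5 had 13.7 and 13.8 CPM in Dnmt3l-KO and 12.8 and 12.3 CPM in WT, at 0.14 ± 0.11 with separate groups. Dnajb12, anchored in the endoplasmic reticulum membrane, had 56.3 and 54.5 CPM in Dnmt3l-KO and 53.2 and 53.1 CPM in WT, at 0.06 ± 0.09. Dnajb3, a testis gene, had 80 and 58 counts in Dnmt3l-KO and 76 and 100 counts in WT.

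Dnajc proteins share only the J domain and serve many compartments. Of 27 genes 24 were tested, and both knockout libraries lay below both WT libraries in 8 and above them in 4, where 16.5% and 16.2% of all genes did. Dnajc10 (ERdj5), a disulfide reductase of the endoplasmic reticulum, had 158 and 165 CPM in Dnmt3l-KO and 182 and 181 CPM in WT, a log2 fold change of -0.17 ± 0.09 (SE; interval -0.40 to 0.06). Dnajc8, a nuclear protein tied to splicing, had 46.8 and 51.5 CPM in Dnmt3l-KO and 60.0 and 53.2 CPM in WT, at -0.21 ± 0.11. Dnajc9, a chaperone of histones H3 and H4, had 33.4 and 35.6 CPM in Dnmt3l-KO and 37.5 and 41.1 CPM in WT, at -0.19 ± 0.10. In these 3 genes the groups stood apart, and none passed (adjusted p = 0.999 in edgeR for each).

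Among further Dnajc genes, Dnajc19, Dnajc5 and Dnajc13 were of high level and had small differences, while Dnajc6 and Dnajc24 were of lower level. Dnajc19, a subunit of the motor that pulls proteins into mitochondria, had 27.9 and 26.5 CPM in Dnmt3l-KO and 29.6 and 29.4 CPM in WT. Dnajc5, the cysteine string protein of secretory vesicles, had 149.5 and 120.0 CPM in Dnmt3l-KO and 139.4 and 130.6 CPM in WT. Dnajc13, an endosomal protein, had 180.4 and 189 CPM in Dnmt3l-KO and 202 and 182 CPM in WT. Dnajc6 (auxilin), which uncoats clathrin vesicles mainly in neurons, had 15 and 12 counts in Dnmt3l-KO and 5 and 7 counts in WT. Its log2 fold change of 1.10 ± 0.53 (SE; interval -0.27 to 2.47; adjusted p = 0.999 in edgeR) was the most positive of the members and rests on those few counts. Dnajc24, needed for the diphthamide modification of elongation factor 2, had 267 and 253 counts in Dnmt3l-KO and 312 and 296 counts in WT, at -0.27 ± 0.17.

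**Figure D4:**
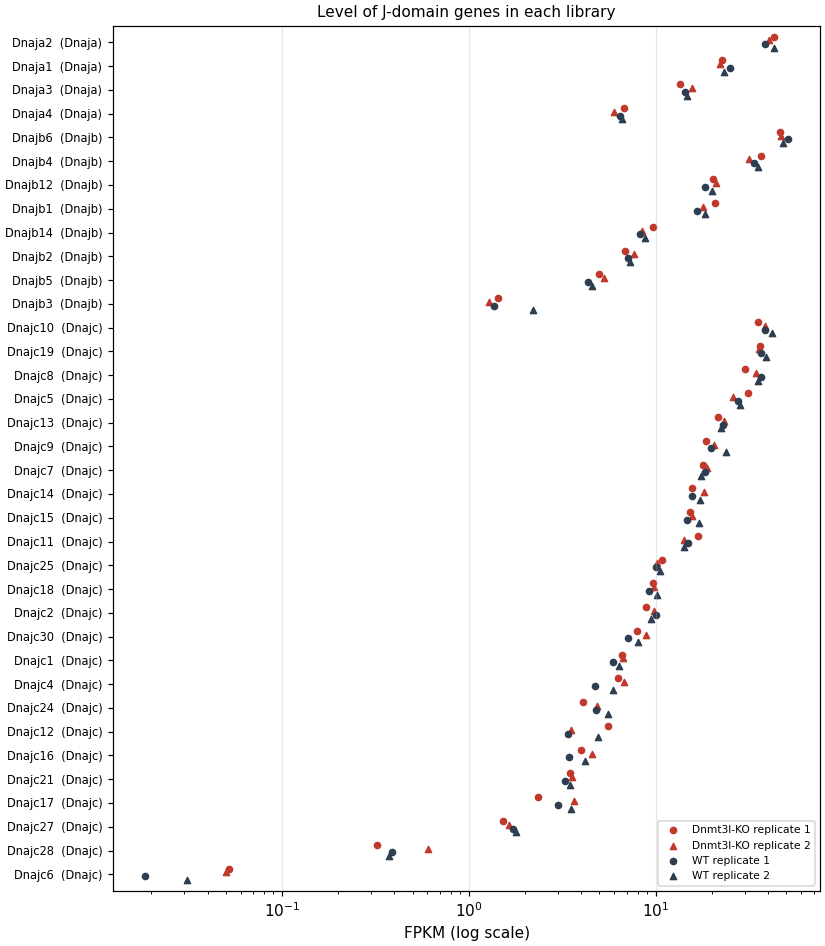
FPKM of the 36 tested J-domain genes in each library (x axis, log scale; red, Dnmt3l-KO; dark blue, WT; circles, replicate 1; triangles, replicate 2). Dnajb6 and Dnaja2 are the most abundant, Dnajc6 the lowest, and the points of the genotypes are interleaved for many genes.

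Together the J-domain genes came to 0.468 and 0.517 times the HSP70 FPKM in Dnmt3l-KO and 0.490 and 0.480 times in WT. The mitochondrial members Hspa9, Hspd1, Hspe1, Dnaja3, Dnajc4, Dnajc11, Dnajc15, Dnajc19, Dnajc28 and Dnajc30 summed to 1083 and 1036 CPM in Dnmt3l-KO and 1147 and 1019 CPM in WT. Of these 10, 0 passed and 0 had an unadjusted p under 0.05 in edgeR, and 0 passed in DESeq2. The shares over all genes were 0.0203%, 4.15% and 0.166%, so counts of 0 among 10 genes say little. The median log2 fold change of the 10 was -0.03. Of 10 members known from germ cells 3 were tested. Dnajb7, Dnajb8, Dnajb13, Dnajc5b and Dnajc5g had 0 counts in all 4 libraries, and Cct6b, the testis CCT subunit, had 4 and 7 counts in Dnmt3l-KO and 5 and 5 counts in WT. A count of 0 allows up to 3 counts in a library, or 0.0601 to 0.0719 CPM, counting error only. Cct8l1 had 0 counts as well, and Dnajc22 had 4 and 6 counts in Dnmt3l-KO and 10 and 4 counts in WT.

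The CCT complex is built from 8 different subunits, and their transcripts lay within 1.73-fold of each other per length. In every library the highest subunit, Cct2, exceeded the lowest by 1.66-fold and 1.73-fold in Dnmt3l-KO and 1.62-fold and 1.65-fold in WT. The mean over the 8 subunits was 135.0 and 123 FPKM in Dnmt3l-KO and 133 and 138 FPKM in WT. Cct2 had 404 and 356 CPM in Dnmt3l-KO and 400.1 and 393 CPM in WT. Tcp1, the alpha subunit, had 400.1 and 359.7 CPM in Dnmt3l-KO and 431 and 406 CPM in WT. It was the 1 subunit of 8 whose groups did not overlap, where 32.8% of all genes did not overlap in either direction.

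All 8 CCT fold changes were negative, from -0.16 for Cct8 to -0.06 for Cct2, where 48.7% of all genes were negative. Of the 8, 0 were called by edgeR or DESeq2, against 0.0203% and 0.166% of all genes. None reached an unadjusted p under 0.05 in edgeR, which 4.15% of all genes did. Dnmt3l-KO replicate 2 was the lowest library for each of the 8. Cct5 had 317 and 271 CPM in Dnmt3l-KO and 342 and 314 CPM in WT, and Cct7 had 317 and 257 CPM in Dnmt3l-KO and 307 and 308 CPM in WT. Cct3 had 266 and 225 CPM in Dnmt3l-KO and 259 and 261 CPM in WT. Cct4, at -0.13, and Cct6a, at -0.08, overlapped as well. The summed level of the complex was 2555 and 2224 CPM in Dnmt3l-KO and 2649 and 2520 CPM in WT. Its log2 ratio was -0.11, and -0.02 without Dnmt3l-KO replicate 2 and -0.22 without Dnmt3l-KO replicate 1.

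Several members have near-identical copies in the genome. Against GENCODE transcripts of GRCm38, 7 members had 19 processed pseudogene copies of at least 95% identity, 5 of them of Hspa8, 5 of Dnajb6, 3 each of Hsp90aa1 and Dnaja1, and 1 each of Hspb1, Hspd1 and Dnajc17. Identity reached 99.74% for Hspa8 and 99.47% for Hsp90aa1. None of the 19 copy names matched a symbol in the table, so reads from such a copy could be counted under the member, and the values of these 7 genes are uncertain to that degree. Exons of several members also overlap a neighbour on the opposite strand, as in Dnaja4 with Wdr61 over 1581 bases and Dnajc14 with Ormdl2 over 1114 bases. The sources used here do not say whether counting used the strand. Some annotated exons overlap a neighbour on the same strand, as in Hspa8 with Snord14e over 90 bases and Hspa14 with Gm45902 over 321 bases. Strand alone would not separate those reads.

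Single transcripts gave no called member either. Of 149 member transcripts tested in edgeR as features of their own, 0 passed and 6 (4.03%) had an unadjusted p under 0.05, where 0.00252% and 4.12% of 39633 transcripts did. The lowest p belonged to Hsph1. Its predicted variant X2 had 792 and 561 counts in Dnmt3l-KO and 1249 and 1217 counts in WT, which is 17.3% and 16.5% of the gene's counts in Dnmt3l-KO and 30.2% and 34.9% in WT. The curated Hsph1 transcript had the larger share in each library, 79.3% and 81.2% in Dnmt3l-KO and 68.4% and 62.8% in WT, and the gene's sum overlapped as above. Variant 2 of Dnajc5 had 1021 and 817 counts in Dnmt3l-KO and 586 and 374 counts in WT. The edgeR log2 fold changes were -0.93 ± 0.17 for Hsph1 X2 and 0.90 ± 0.24 for Dnajc5 variant 2 (SE, adjusted p above 0.999 for both). The division of reads among variants is an estimate of the deposited table.

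Genes that HSF1 induces had values on both sides. Of 23 such genes, 14 of them members, 0 passed in edgeR or DESeq2, against 0.0203% and 0.166% of all genes. In edgeR 3 had an unadjusted p under 0.05, against 4.15% of all genes. The median log2 fold change of the 23 was -0.06. Both knockout libraries were below both WT libraries in 6 and above them in 5, where 16.5% and 16.2% of all genes were. Hspa1b was on the lower side. Ubb, a polyubiquitin gene, was on the upper side with 702 and 704 CPM in Dnmt3l-KO and 554 and 565 CPM in WT, and so was Bag3, the partner of Hspb8, with 77.7 and 60.6 CPM in Dnmt3l-KO and 50.9 and 53.5 CPM in WT. Their log2 fold changes were 0.33 ± 0.10 for Ubb and 0.41 ± 0.14 for Bag3 (SE, adjusted p = 0.999 in edgeR for both). Of the 9 stress-inducible members, 7 had negative and 2 positive fold changes, with a median of -0.17, where 48.7% of all genes were negative. Both knockout libraries were below both WT libraries in 4 and above them in 0, against 16.5% and 16.2% of all genes. The 4 were Hspa1a, Hspa1b, Hsp90aa1 and Hspa4l. Since Hspa1a and Hspa1b are near-identical, they may not count as separate genes here. None of the 9 passed in edgeR or DESeq2, against 0.0203% and 0.166% of all genes. These 9 share the same 4 libraries, and no test was made of that list. Hsf1 itself had 36.0 and 30.6 CPM in Dnmt3l-KO and 29.7 and 29.7 CPM in WT, and Hsf2 had 23.8 and 21.03 CPM in Dnmt3l-KO and 21.1 and 21.3 CPM in WT. Of 6 tested genes of heat shock factors and their binding proteins, 0 passed in edgeR or DESeq2, against 0.0203% and 0.166% of all genes. None had an unadjusted p under 0.05 in edgeR, where 4.15% of all genes did.

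Co-chaperones that serve HSP70 and HSP90 likewise gave no call. Of 35 genes 0 passed in edgeR or DESeq2, against 0.0203% and 0.166% of all genes. In edgeR 3 had an unadjusted p under 0.05, all with positive fold changes, where 4.15% of all genes had such a p. Bag6, which guards proteins bound for membranes or degradation, had 156 and 150.6 CPM in Dnmt3l-KO and 115 and 123 CPM in WT, a log2 fold change of 0.36 ± 0.09 (SE). Cdc37, which loads kinases onto HSP90, had 145 and 122 CPM in Dnmt3l-KO and 112 and 102 CPM in WT, at 0.32 ± 0.12. Bag3 was the other. Both Dnmt3l-KO libraries were above WT in 10 of the 35 genes and below in 6, where 16.2% and 16.5% of all genes did so, and the median was 0.03. The list of prefoldin and phosducin-like partners of CCT also held 2 members, the CCT subunits Cct6a and Cct6b, and Cct6b was not tested. Among its 10 tested genes, Cct6a included, 0 passed in edgeR or DESeq2, against 0.0203% and 0.166% of all genes. In edgeR 1 had an unadjusted p under 0.05, which 4.15% of all genes had. This was Pfdn1, a prefoldin subunit that hands actin and tubulin to CCT, with 62.2 and 55.4 CPM in Dnmt3l-KO and 77.5 and 72.4 CPM in WT, at -0.35 ± 0.10 (SE, adjusted p = 0.999 in edgeR). Mitochondrial protein quality control was a list of 15 genes with 4 members among them. Of these 15, 0 passed in edgeR or DESeq2, against 0.0203% and 0.166% of all genes. None of the 15 had an unadjusted p under 0.05 in edgeR, which 4.15% of all genes had. The lowest p there belonged to the protease subunit Clpx, with 24.9 and 26.4 CPM in Dnmt3l-KO and 30.5 and 29.9 CPM in WT.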

How the data were processed

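RNA depleted of ribosomal RNA was sequenced from 2 Dnmt3l-KO and 2 WT fibroblast libraries. Per the submitters' processing notes, the authors worked on build mm10 and ran DESeq2 1.8.0, eXpress 1.4.1, Cufflinks 2.2.1 and TopHat2 2.0.12, whose roles are not stated. Each RefSeq transcript has a deposited estimated count and a deposited FPKM per library, as named in the headers. The authors' own comparison columns (mean signal, log2 fold change and its error, test score and p-value) were left unused. The deposited estimated counts were whole numbers. The sources used here do not say how reads matching several transcripts or copies were shared out.

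Counts of 116415 transcripts were summed over 36846 gene symbols. Dnmt3l-KO was compared with WT with edgeR 4.0.16 under R 4.3.3, using TMM factors, filterByExpr and robust quasi-likelihood F-tests, over 14760 symbols, adjusting p by Benjamini-Hochberg (threshold 0.05). Standard errors and 95% intervals were derived from the F statistic. The fit was tested on simulated data. Single sums and ratios were tested by exact two-sided permutation over libraries. Copies were found with BLAST 2.17.0 on GENCODE M21 transcripts (at least 95% identity, 300 bases and 80% of the copy). Promoters and gene positions are from RefSeq (GRCm38.p6, same build as mm10), for 62 and 77 of 77 members.

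Alternatives were other normalizations, DESeq2 1.42.0, no filter, limma 3.58.1 on log2(FPKM + 1) and log2(FPKM + 0.1), the replicate number as a block and each library left out. Seeing the data prompted 2 more, the summed pair and transcripts as features. Members and lists were chosen with earlier results of these data known. The genes named were Dnmt3l, every HSP, small HSP, CCT and Dnaja member, the 4 Dnajb and 4 Dnajc genes of highest mean FPKM and the 4 of smallest edgeR p in each, the 10 members of smallest p, members below the filter, and up to 3 genes of smallest p per further list. Dnajc13, Dnajc24, Hsf2, the marker genes and the transcripts were named after their values were seen.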

Additional observations from a re-analysis of the deposited data

How the results depend on the processing

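In every alternative, edgeR, DESeq2 or limma called 0 of the members tested, and the smallest adjusted p of a member was 0.202, without Dnmt3l-KO replicate 2. The count of all genes called was 3. It was 31 with DESeq2, 8 with no filter, 6 and 9 with limma on log2(FPKM + 1) and log2(FPKM + 0.1), 1 with transcripts as features, and 2 to 6 with a library left out. The median log2 fold change of the members was -0.06. It was -0.0195 and -0.0203 with the limma pseudocounts of 1 and 0.1, and -0.097 to -0.0222 with a library left out. The libraries were treated as sharing only a replicate number, since the labels tie nothing else to it. The deviations of same-numbered libraries correlated at 0.0999 over all genes and 0.129 over the members. With the replicate block, 0 members and 4 genes in all were called. The log2 ratio of summed CPM ranged from -0.17 to 0.00674 for HSP70, from -0.42 to 0.11 for small heat shock proteins and from -0.58 to -0.34 for the Hspa1a and Hspa1b pair with a library left out, lowest without Dnmt3l-KO replicate 1 for the first and second and without Dnmt3l-KO replicate 2 for the pair; the cause was not tested. No member was called, so no direction was lost, but the sign changed in 17 of 67 members without Dnmt3l-KO replicate 2, 14 without Dnmt3l-KO replicate 1, 12 without WT replicate 1, 6 without WT replicate 2, 8 with either limma pseudocount and 3 with upper-quartile factors, while 32 kept 1 sign throughout. At this depth, members with few counts, such as Dnajc6 and Hspa1l, had intervals that reached beyond 2-fold in at least 1 direction. So did Hspa1a and Hspb1, which had more counts but knockout libraries that lay far apart.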

Other observations

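The chaperones of the endoplasmic reticulum that the naming rule left out were at a similar level in both genotypes. Hspa5 (BiP), the HSP70 of that compartment, had 493 and 583 CPM in Dnmt3l-KO and 606 and 553 CPM in WT. Hsp90b1 (GRP94), its HSP90, had 749 and 783 CPM in Dnmt3l-KO and 839 and 749.9 CPM in WT. The J-domain genes Dnajb11 and Dnajc3 had 96.1 and 94.7 CPM, and 117 and 114 CPM, in Dnmt3l-KO, against 97.8 and 95.8 CPM, and 118 and 116 CPM, in WT. Dnajb9, induced when unfolded proteins build up there, had 29.9 and 20.5 CPM in Dnmt3l-KO and 23.3 and 23.8 CPM in WT. Of these 5 genes 0 passed in edgeR or DESeq2, against 0.0203% and 0.166% of all genes. None had an unadjusted p under 0.05 in edgeR, which 4.15% of all genes had.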
